A study of Mus musculus with 12 samples.

Results

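The genes described here are those of the cell cycle and DNA replication that could be measured in the mouse renal medulla, the inner kidney where urine is concentrated. They were taken by name. A gene was a member when its symbol in the array annotation began as those of cyclins (Ccn), cyclin-dependent kinases and their inhibitors (Cdk), division cycle genes (Cdc), replication origin and helicase subunits (Orc, Mcm), replicative polymerases and clamp loaders (Pol, Rfc), ribonucleotide reductase (Rrm), topoisomerases (Top), mitotic kinases and checkpoint proteins (Aurk, Plk, Bub), centromere proteins (Cenp) or E2F factors do, or was Pcna, Mki67 or Tyms. This rule found 109 of the 6786 measured genes, on 151 cDNA clones, with 78 members on 1 clone and 31 on 2 or more. The rule works by name, so it also takes genes with other main roles, among them Cdc42 and its partners and the kinases of transcription. No measured value entered the rule.

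Progress through the cell cycle is driven by cyclins, which rise and fall in turn and activate their kinases. In G1 the D cyclins with Cdk4 or Cdk6 phosphorylate the retinoblastoma protein, which frees E2F factors to switch on genes for S phase. The origin recognition complex and Cdc6 then load the Mcm helicase, and polymerases with the Pcna clamp copy the DNA, before the mitotic kinases and centromere proteins divide the chromosomes. Most cells of the adult renal medulla are not dividing.

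After amplification, medullary RNA of 3 mice on restricted water was hybridised to 2-colour arrays together with that of 3 control mice, in every pairing. Of the 9 pairs of mice, 3 were measured in both dye orientations, which gives 12 arrays. On 6 arrays, called the 546 orientation here, Alexa Fluor 546 labelled the water-restricted mouse, and on the other 6, the 647 orientation, Alexa Fluor 647 did. Each mouse is 1 replicate, and strain, age, sex and the length of water restriction are not stated in the labels.

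The deposited value is a log2 ratio of both channels for each spot, and its numerator dye is not stated. Ratios of the 647 orientation had their sign changed here, so that all 12 arrays point the same way. If the authors divided Alexa Fluor 546 by 647, a positive difference below is a higher level in water-restricted mice, and if they divided the other way it is a lower one. The direction is not settled, and genes are described as lying on the positive or the negative side. A level is the fitted log2 value of a mouse, centred on the mean of the mice for each gene, and says nothing of absolute abundance. In whole tissue, fewer cells of a type and less RNA per cell cannot be told apart.

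Array medians ran from -0.038 to 0.06, and 11 arrays had an SD of 0.515 to 0.764 across spots. The widest array, which pairs water-restricted mouse 2 with control mouse 2, had an SD of 1.207. The 2 spots of a member's clone correlated at 0.155 to 0.785 within arrays. Arrays of the same 2 mice in opposite orientations had deposited ratios that correlated across genes at -0.18, 0.12 and -0.20, and across members at -0.13, 0.10 and 0.09. Ratios that run by dye and follow the mice would correlate negatively, so these values bear weakly on the sign change, and 2 of the 3 over members have the other sign. With signs changed by dye, mice differed at an unadjusted p under 0.05 in 20.5% of genes, against 9.77% with the ratios read as already turned.

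Promoter windows of 4 members are printed here because they hold E2F motifs, in 2 helicase genes, or E-boxes, in both D-cyclin kinases. They were chosen for these matches and do not stand for the other members, most of which had no E2F match. RefSeq promoter windows of GRCm38.p6, from 250 bases before to 50 after each start, were matched for 95 of the 109 members, in 111 windows. The windows of Ccnd1, Ccnd2 and Ccna2 were not among those used here. E2F motifs were searched as TTTGGCGC, TTTCCCGC, TTTGCCGC and TTTCGCGC on both strands, and E-boxes as CACGTG. Capitals mark these matches, and overlapping E2F matches on opposite strands form 1 run.
Mcm6, chr1:128359656-128359955 (- strand): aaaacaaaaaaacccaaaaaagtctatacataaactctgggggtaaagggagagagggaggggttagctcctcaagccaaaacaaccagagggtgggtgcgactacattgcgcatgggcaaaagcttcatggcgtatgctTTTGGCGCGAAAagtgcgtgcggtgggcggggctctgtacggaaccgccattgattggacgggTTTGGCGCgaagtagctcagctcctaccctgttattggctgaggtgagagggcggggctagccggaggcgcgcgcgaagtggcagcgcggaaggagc
Mcm5, chr8:75109259-75109558 (+ strand): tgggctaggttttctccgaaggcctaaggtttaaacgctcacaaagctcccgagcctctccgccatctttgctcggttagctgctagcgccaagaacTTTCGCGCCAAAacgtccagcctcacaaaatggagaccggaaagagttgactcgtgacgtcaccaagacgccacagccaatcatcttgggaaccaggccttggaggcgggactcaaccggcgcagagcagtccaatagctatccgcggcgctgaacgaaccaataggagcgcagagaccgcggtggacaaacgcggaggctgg
Cdk4, chr10:127063285-127063584 (+ strand): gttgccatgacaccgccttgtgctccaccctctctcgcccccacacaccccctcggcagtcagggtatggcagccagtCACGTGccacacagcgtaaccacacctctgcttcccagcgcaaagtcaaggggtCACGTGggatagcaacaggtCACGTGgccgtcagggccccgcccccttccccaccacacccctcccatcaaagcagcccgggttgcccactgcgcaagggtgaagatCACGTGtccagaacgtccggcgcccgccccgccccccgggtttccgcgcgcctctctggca
Cdk6, chr5:3343643-3343942 (+ strand): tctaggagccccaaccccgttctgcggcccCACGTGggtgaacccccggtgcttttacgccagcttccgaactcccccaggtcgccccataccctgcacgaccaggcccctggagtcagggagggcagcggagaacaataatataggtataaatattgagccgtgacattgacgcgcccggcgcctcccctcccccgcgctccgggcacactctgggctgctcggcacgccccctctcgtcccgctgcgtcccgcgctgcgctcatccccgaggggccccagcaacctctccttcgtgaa
The Mcm6 window held 3 E2F matches and that of Mcm5 held 2. Of the other helicase subunits, Mcm3 had 2 in its window, Mcm7 had 2 in 1 window and 0 in another, and Mcm2 had 0. The Cdk4 window held 4 E-boxes, the site read by Myc with Max, and that of Cdk6 held 1. An E2F match was present in 20 of the 111 member windows (18%), against 744 of 32851 windows in the whole table (2.3%). Among the windows of origin, helicase, polymerase, clamp, clamp loader and ribonucleotide reductase genes it was present in 12 of 30 (40.0%). The CCAAT box, searched as CCAAT, was in 56.8% of member windows against 37.4% of all, and the GC box, GGGCGG, in 71.2% against 35.7%. The CACGTG E-box was in 9.0% against 7.2%, and TTTGAA, the cell cycle homology region of late cell cycle genes, in 20.7% against 17.9%, both searched on both strands. A match is a run of letters and not a measured site. The arrays bear on these promoters through the genes' differences. The 19 members with an E2F match had 7 positive and 12 negative differences from -0.36 to 0.29, with a median of -0.03, beside 3442 positive and 3344 negative and a median of 0.00 over all genes. Whether they differ from other members was not tested.

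As a whole the members were centred on 0. Of the 109, 54 were on the positive side and 55 on the negative side, with a median difference of 0.00 and a median size of 0.13, the same as over all 6786 genes (3442 positive and 3344 negative). With the ratios read as already turned 72 of the 109 were positive, with a median of 0.07 against 0.05 over all genes, and in the 546 orientation alone 64 were, with the same medians. The even split is thus that of the sign change used here. The members ran from -1.18, for Ccnd1, to 0.42, for Cdk16. Over all genes the range was -1.57 to 1.72. The median of the members' levels was 0.01, 0.00 and -0.01 in water-restricted mice 1, 2 and 3, and 0.03, 0.00 and 0.01 in control mice 1, 2 and 3.

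No member passed the comparison of mouse levels, 3 against 3, by limma with Benjamini-Hochberg adjustment over all genes at 0.05, and neither did any other gene (0%). At an unadjusted p under 0.05 there were 4 members, 3.67% of them, against 4.97% of all genes. These were Ccnd1, Cdk6 and Cenph on the negative side and Cdk16 on the positive side. The levels of both groups did not overlap for 10 members, or 9.17%, against 9.80% of all genes. Of the 10, Cdk16, Pole4 and Cenpe were positive, and Ccnd1, Ccnd2, Cdk6, Cdk7, Cdkn1c, Top2b and Cenph were negative. A fit with random mouse effects, which uses all arrays and assumes 1 ratio of mouse to array variance for every gene, called 2 members at an adjusted p under 0.05, Ccnd1 and Cdk6. That is 1.83% of the members, against 1.65% of all genes. These shares lie near or below those of all genes.

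The precision was moderate. The median standard error of a member was 0.18, and the median 95% interval reached 0.42 to either side. Both come from the comparison of mouse levels, which counts error of shared arrays in both groups and can make them too wide. The interval lay within -1 and 1 for 99 of the 109 members, so for those a change of 2-fold between the groups lies outside the interval. For most members a difference of the median size, 0.13, was not detectable with 3 mice per group.

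**Figure D1:**
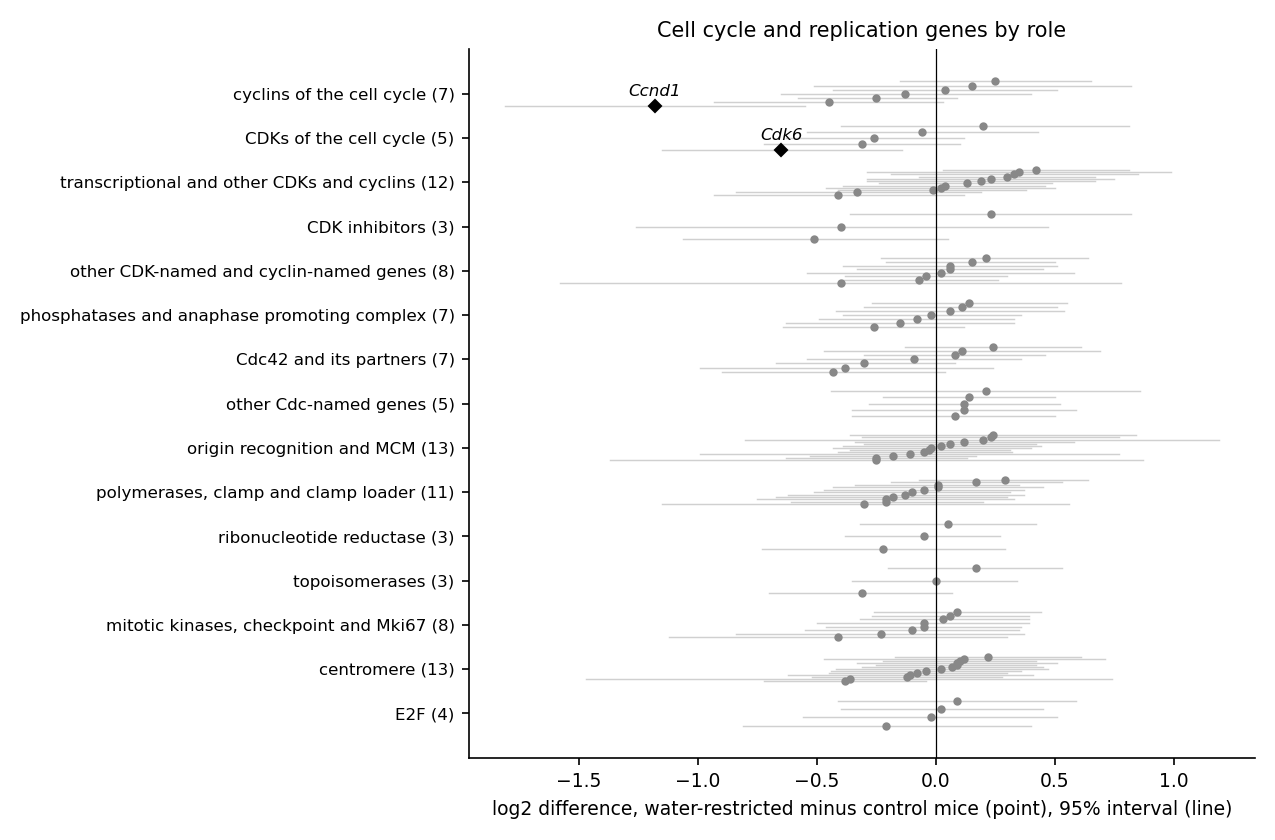
The log2 difference, water-restricted minus control mice, is shown on the horizontal axis for each of the 109 members, sorted by role on the vertical axis with the number of genes in brackets. Points are differences and lines their 95% intervals, 3 mice per group. Ccnd1 at -1.18 and Cdk6 at -0.65, marked by diamonds, stand left of the rest, and most other intervals cross 0.

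Cyclin D1, encoded by Ccnd1, is the D cyclin that responds to growth signals, and it had the largest difference of any member. In the 546 orientation the ratio was -1.75 for water-restricted mouse 1 against control mouse 3, -0.98 for 2 against 1, -0.58 for 3 against 2, -0.23 for 2 against 2, -1.59 for 3 against 3 and -1.11 for 1 against 1. In the 647 orientation, sign changed, it was -2.12 for 1 against 3, -1.31 for 2 against 1, -0.73 for 3 against 2, -1.30 for 3 against 1, -0.91 for 1 against 2 and -1.74 for 2 against 3. The sign was the same on 12 of 12 arrays, which held for this 1 member (0.917%) and for 2.05% of all genes. As deposited, the Ccnd1 ratio was negative on 6 of 6 arrays of the 546 orientation and positive on 6 of 6 of the 647 orientation, so its deposited sign changed with the orientation. The ratios with control mouse 3 were the most negative in both orientations.

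The fitted Ccnd1 level was -0.73, -0.45 and -0.59 in water-restricted mice 1, 2 and 3, against 0.60, 0.01 and 1.17 in control mice 1, 2 and 3. The groups did not overlap, the water-restricted mice lay close together, and the control mice were spread widely. The difference was -1.18 (SE 0.27, 95% interval -1.81 to -0.55, 3 mice per group), with an unadjusted p of 0.00243 by limma, the 27th smallest of 6786 genes, and an adjusted p of 0.609. It was -1.04 from the 546 orientation alone and -1.35 from the 647 orientation alone. Without control mouse 3 it was -0.89, and without control mouse 2 it was -1.47. With random mouse effects it was -1.20 (SE 0.17, limma adjusted p = 0.00224), but the adjusted p was 0.127 once water-restricted mouse 3 was left out and 0.0705 once control mouse 1 was. If the ratios were instead already turned to 1 side when deposited, the difference would be 0.16 (limma adjusted p = 0.903).

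Ccnd1 was also the member whose level differed among mice of the same group. Its moderated F against the error between arrays was 17.8 (limma adjusted p = 0.0451), and it was the 1 member called (0.917%), against 0.442% of all genes. With equal weights for all 12 arrays the adjusted p was 0.0922. The residual SD of Ccnd1 between arrays was 0.07, against a median of 0.33 over members, so the spread among control mice exceeded what arrays of the same mice differed by. The random-effects fit takes 1 mouse to array variance ratio of 0.124 for every gene. Where the mice of a gene differ by more than that ratio, the standard error of that fit is too small. Ccnd1 was measured on 1 clone.

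Cdk6, a kinase partner of the D cyclins, lay on the same side. Its level was -0.43, -0.13 and -0.41 in water-restricted mice 1, 2 and 3, against 0.34, -0.08 and 0.71 in control mice 1, 2 and 3. The groups were separated by a narrow gap, between water-restricted mouse 2 and control mouse 2. The difference was -0.65 (SE 0.22, 95% interval -1.15 to -0.14), with a limma adjusted p of 0.771, and with random mouse effects -0.69 (adjusted p = 0.0268). The 2 dye orientations did not give the same size. In the 546 orientation the ratios ran from -0.72 to 0.44 with a median of -0.12, and in the 647 orientation from -1.96 to -0.69 with a median of -1.14. The fitted differences were -0.17 in the 546 and -1.21 in the 647 orientation, and the dye term of Cdk6 was called (limma adjusted p = 0.00946). The random-effects call of Cdk6 was lost without any 1 of the 6 mice (adjusted p from 0.0556 to 0.503). Read as already turned, the difference would be 0.49 and on the other side. Control mouse 3 had the highest level and control mouse 2 the lowest control level for both Ccnd1 and Cdk6.

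**Figure D2:**
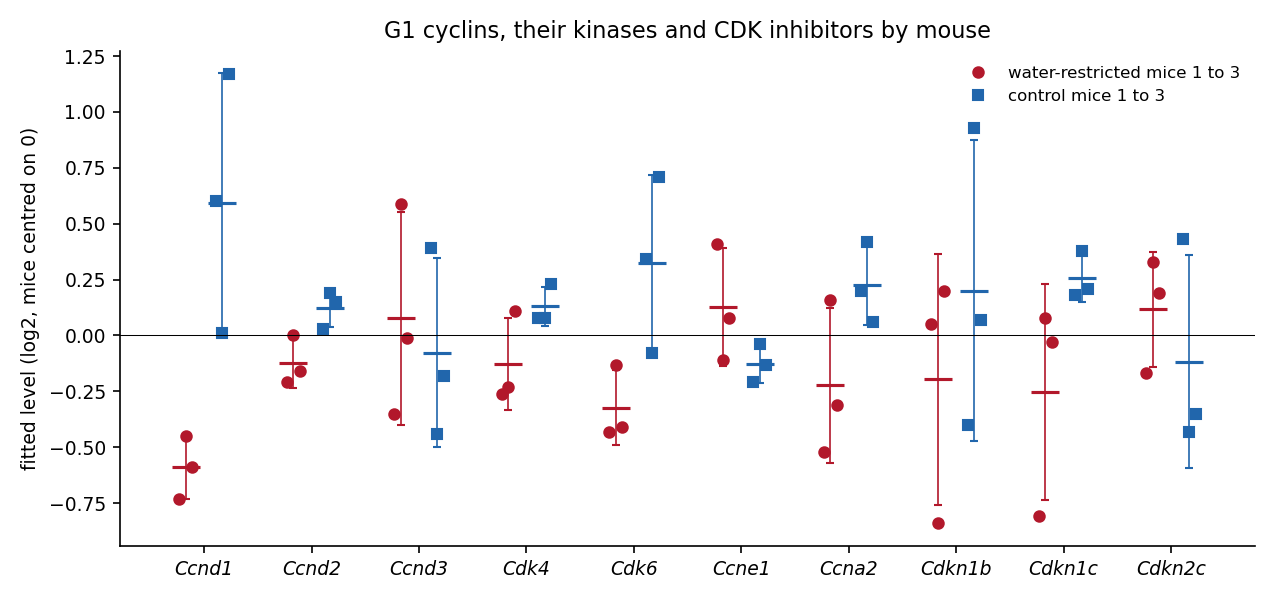
Fitted log2 levels of 10 genes of G1 control are shown for each mouse on the vertical axis, water-restricted mice as circles and control mice as squares, with horizontal bars for group means and vertical bars for SD (3 mice each). For Ccnd1 the water-restricted mice lie between -0.73 and -0.45 and the control mice between 0.01 and 1.17.

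Of the other D cyclins and their kinases, Ccnd2 and Cdk4 were also negative and Ccnd3 was positive. Ccnd2, the D cyclin with the most clones, had levels of -0.21, 0.00 and -0.16 in water-restricted mice against 0.03, 0.19 and 0.15 in control mice. These did not overlap, and 11 of 12 arrays were negative. Its 6 clones were each on the negative side, from -0.40 to -0.05, and the gene's difference was -0.25 (SE 0.15, limma adjusted p = 0.996). Cdk4 had -0.26, -0.23 and 0.11 in water-restricted mice against 0.08, 0.08 and 0.23 in control mice, with an overlap at water-restricted mouse 3. Its difference was -0.26 (SE 0.16), and its 2 clones gave -0.27 and -0.24. Ccnd3 had -0.35, 0.59 and -0.01 in water-restricted mice against 0.39, -0.44 and -0.18 in control mice, which overlap throughout. Its difference of 0.15 (SE 0.29) came from 0.69 in the 546 and -0.53 in the 647 orientation. Among these 5 genes 2 had an unadjusted p under 0.05, Ccnd1 and Cdk6, against 4.97% of all genes and 3.67% of members. The 5 were grouped with these values known.

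The remaining cyclins and kinases of the cycle were smaller or less steady. Ccna2, the cyclin of S phase and G2, had -0.52, 0.16 and -0.31 in water-restricted mice against 0.20, 0.42 and 0.06 in control mice. The groups overlapped, and the difference was -0.45 (SE 0.21, limma adjusted p = 0.996). Its 3 clones spread from -0.89 to -0.12, the widest of any member. Ccne1, which acts with Cdk2 at the start of S phase, was at 0.25 (SE 0.17), and its ratio of 2.47 on 1 array exceeded the next highest, 0.71. Cdk2 was at 0.20 (SE 0.26), Cdk1, the kinase of mitosis, at -0.06 (SE 0.21), and Ccnb2, its cyclin, at 0.04 (SE 0.20). The annotation also lists a Ccnb2 pseudogene at -0.04, and near-identical copies may share hybridisation. Cdk7, which activates the other kinases, was at -0.31 (SE 0.18), from 0.01 in the 546 and -0.64 in the 647 orientation. Ccng1, a p53 target, was at -0.13 (SE 0.23), with clones at 0.19 and -0.44.

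The kinase inhibitors gave no common side. Cdkn1c, which restrains cyclin-dependent kinases and is known for its place in kidney development, had -0.81, 0.08 and -0.03 in water-restricted mice against 0.18, 0.38 and 0.21 in control mice. The groups did not overlap, water-restricted mouse 1 stood lowest, and 11 of 12 arrays were negative. The difference was -0.51 (SE 0.24, 95% interval -1.06 to 0.05, limma adjusted p = 0.996). Cdkn1b, an inhibitor of kinases in resting cells, was at -0.40 (SE 0.38) on 12 arrays and at -0.05 without the widest array. Cdkn2c, an inhibitor of Cdk4 and Cdk6, was at 0.23 (SE 0.26). Cdkn1a was not among the measured genes.

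The kinases and cyclins of transcription and other processes, which the rule took by name, held the highest difference under the sign change used here. Cdk16, a kinase related to the cell cycle kinases and active in other processes, had 0.24, 0.31 and 0.08 in water-restricted mice against 0.00, -0.44 and -0.19 in control mice. The groups did not overlap, 10 of 12 arrays were positive, and the difference was 0.42 (SE 0.17, 95% interval 0.03 to 0.81, limma adjusted p = 0.931). Its 2 clones gave 0.62 and 0.22, the first of them positive on 12 of 12 arrays. Read as already turned, the Cdk16 difference would be -0.03. Cdk12, which phosphorylates RNA polymerase II, was at 0.30 (SE 0.16). Ccnt2, a cyclin of transcription elongation, was at -0.41 (SE 0.23), and its partner Cdk9 at 0.04 (SE 0.18). Cdk5, best known in neurons, was at 0.33 (SE 0.23). Of the 12 genes of this kind 9 were positive and 3 negative.

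Genes that build the replication machinery stayed close to 0. Of 13 origin and Mcm genes 6 were positive and 7 negative, with a median of -0.02. Of the helicase subunits Mcm2 to Mcm7, 5 were measured, with differences of 0.20 (SE 0.43) for Mcm2, -0.03 (SE 0.15) for Mcm3, 0.24 (SE 0.26) for Mcm5, -0.11 (SE 0.38) for Mcm6 and 0.12 (SE 0.20) for Mcm7. Their 95% intervals reached from -0.99 to 1.19. The Mcm5 and Mcm6 promoters printed above hold E2F matches, and these 2 genes lay on opposite sides. Mcm2 had -0.69, 1.00 and -0.02 in water-restricted mice against 0.41, 0.02 and -0.72 in control mice, and single ratios of 2.82 and -1.56 set its width. Mcm6 moved to -0.36 without the widest array, where its ratio was 1.98. Cdc6, which loads the helicase, had a ratio of -4.05 on that array. The Cdc6 difference was -0.25 (SE 0.49) with the array and 0.21 without it. Orc1 was at 0.02 (SE 0.18) and Orc2 at -0.05 (SE 0.16).

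The proliferation markers most often read in tissue gave small differences. Pcna, the sliding clamp, had 0.11, 0.13 and 0.01 in water-restricted mice against -0.19, -0.21 and 0.14 in control mice. Its difference was 0.17 (SE 0.16), from -0.22 in the 546 and 0.52 in the 647 orientation, and its dye term was called. Mki67, the antigen of cycling cells, had 0.18, -0.28 and 0.02 in water-restricted mice against -0.09, 0.32 and -0.15 in control mice, a difference of -0.05 (SE 0.19, 95% interval -0.50 to 0.39). Top2a, the topoisomerase of dividing cells, had 0.16, -0.12 and -0.05 in water-restricted mice against 0.03, 0.08 and -0.10 in control mice, a difference of 0.00 (SE 0.15, 95% interval -0.35 to 0.34). In each of these 3 genes the groups overlapped. Top2b, its relative in resting cells, was at -0.31 (SE 0.17).

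Polymerase, clamp loader and nucleotide genes ran from -0.30 to 0.29. Pole4, a small subunit of polymerase epsilon, had 0.34, 0.06 and 0.03 in water-restricted mice against -0.04, -0.17 and -0.22 in control mice, with no overlap and a difference of 0.29 (SE 0.16, limma adjusted p = 0.996). Pole, the catalytic subunit, was at -0.05 (SE 0.18), and Pold1, that of polymerase delta, at -0.30 (SE 0.37). Rfc2, a clamp loader subunit, was at 0.01 (SE 0.15). Rrm1 and Rrm2, the subunits of ribonucleotide reductase, were at -0.22 (SE 0.22) and -0.05 (SE 0.14).

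Of 13 centromere genes 7 were positive and 6 negative, and of 8 mitotic kinase and checkpoint genes with Mki67 3 were positive and 5 negative. Cenph, a kinetochore protein, had -0.34, -0.14 and -0.10 in water-restricted mice against 0.26, 0.19 and 0.13 in control mice. The groups did not overlap, and the difference was -0.38 (SE 0.15, limma adjusted p = 0.908), from -0.57 in the 546 and 0.03 in the 647 orientation. The other 12 centromere genes had an unadjusted p above the 0.05 threshold, among them Cenps at -0.36 (SE 0.48, 95% interval -1.47 to 0.74). The Cenps ratio was -3.9 on 1 array, while 8 of 12 arrays were positive and their median was 0.05. The most negative mitotic kinase was Aurkc, best known from meiosis, at -0.41 (SE 0.31, 95% interval -1.12 to 0.30). Its ratio was -3.07 on 1 array, and its median over 12 arrays was -0.14. Bub1, a checkpoint kinase, was at -0.10 (SE 0.20), and Bub1b at -0.23 (SE 0.26), with clones at -0.61 and 0.14. Aurkb, the kinase of chromosome segregation, was at 0.03 (SE 0.16) and Plk1 at -0.05 (SE 0.18). Cdc20, an activator of the anaphase promoting complex, was at 0.11 (SE 0.18), and Cdc25a, a phosphatase that activates the kinases, at -0.02 (SE 0.16). The 4 E2F genes measured, E2f5, E2f6, E2f7 and E2f8, ran from -0.21 to 0.09. Of the 7 genes for Cdc42 and its partners, which shape the cytoskeleton, Cdc42ep5 was at -0.43 (SE 0.20) and Cdc42ep1 at -0.30 (SE 0.16).

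The dye orientation touched members about as often as other genes. The dye term was called in 11 members (10.1%), against 11.3% of all genes, by limma at an adjusted p under 0.05. They were Aurkb, Ccnd3, Ccnt2, Cdk5, Cdk6, Cdk7, Cdk9, Pcna, Pole, Pole4 and Rfc2. For Aurkb, Ccnd3, Cdk9, Pcna, Pole and Rfc2 the difference lay on opposite sides in the 2 orientations, and for Cdk7 it was 0.01 in the 546 and -0.64 in the 647 orientation. Ccnd1 was not among the 11 (limma adjusted p = 0.113). For each gene the dye term is the same contrast as the difference with ratios read as already turned. A dye effect and a group difference under that reading could therefore not be told apart.

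**Figure D3:**
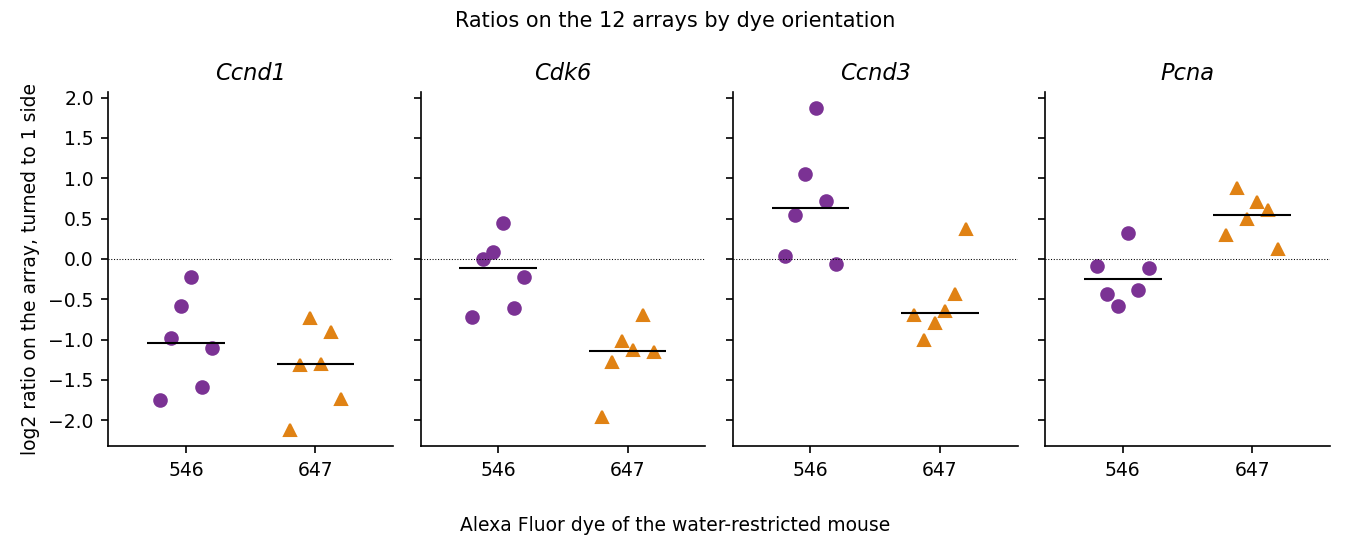
Log2 ratios on the vertical axis, turned to 1 side, are shown for each of the 12 arrays by the dye of the water-restricted mouse on the horizontal axis, with a bar at the median of 6. Ccnd1 is below 0 on 12 arrays, while Pcna is below 0 on 5 of 6 arrays of the 546 orientation and above 0 on 6 of 6 of the 647 orientation.

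**Figure D4:**
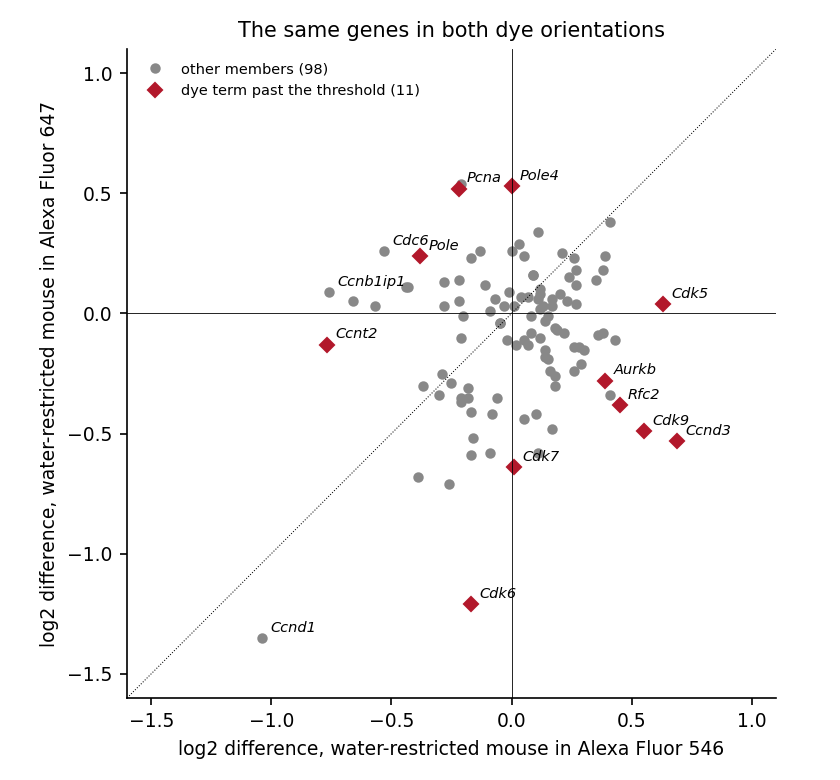
The log2 difference of each member in the 546 orientation (Alexa Fluor 546 on the water-restricted mouse) is on the horizontal axis, and that in the 647 orientation is on the vertical axis, with equality dotted. Ccnd1 lies near the line at -1.04 and -1.35, and the 11 members with a called dye term, as diamonds, lie away from it.

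The widest array decided some members. Without the array that pairs water-restricted mouse 2 with control mouse 2, 8 members moved by over 0.2 and 77 by under 0.1. Ccnb1ip1, a ubiquitin ligase of meiosis, went to -0.04 from 11 arrays, against -0.40 from 12. Cdc42se1, Aurkc, Top1 and Cdc42ep1 moved as well, to -0.04, -0.10, -0.07 and -0.09. Top1 changed side by this, as it was at 0.17 from 12 arrays. Ccnd1 and Cdk6 hardly moved, to -1.20 and -0.65.

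**Figure D5:**
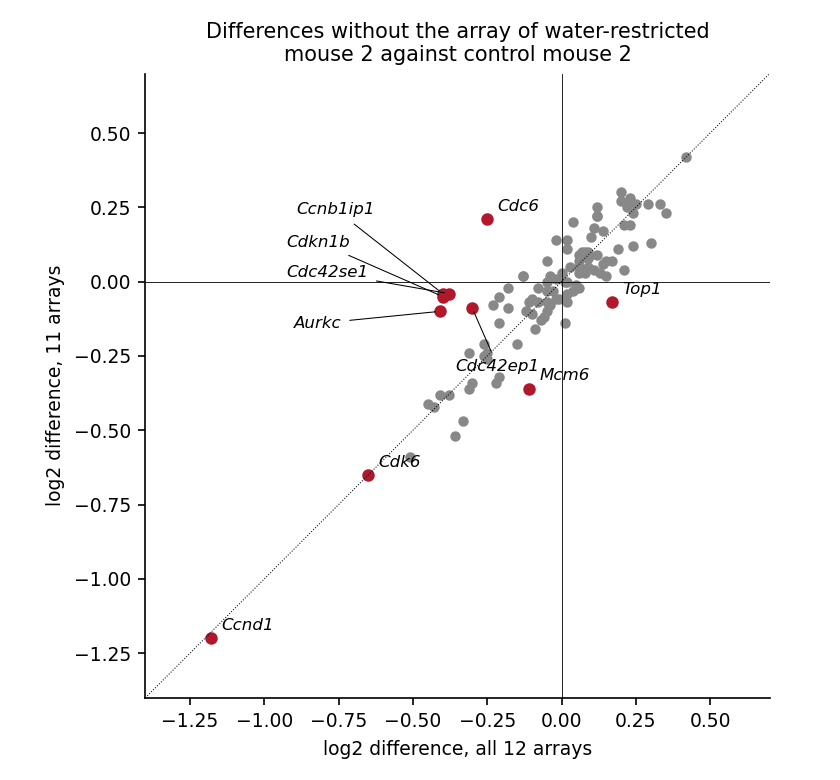
The log2 difference of each member from all 12 arrays is on the horizontal axis and that from 11 arrays, without the widest, on the vertical axis, with equality dotted. The 8 members that moved by over 0.2 are named with Ccnd1 and Cdk6, which stay on the line. Of the 8, Cdc6 and Top1 change side.

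Other genes of these processes, listed by role and outside the name rule, did not share 1 side. The replication and mitosis lists held more negative genes, and the G1 and DNA damage lists more positive ones. All 6786 genes split into 3442 positive and 3344 negative, and whether a list differs from that split was not tested. Over all genes 4.97% had an unadjusted p under 0.05, and in 9.80% the groups did not overlap. The same sign on 12 arrays held for 2.05%, and 1.65% were called with random mouse effects. Of 30 listed replication factors 22 were measured, 8 positive and 14 negative, with a median of -0.08, and 1 had an unadjusted p under 0.05. This was Gmnn, or geminin, which blocks a second loading of the helicase, with 0.23, 0.26 and 0.24 in water-restricted mice against -0.23, -0.20 and -0.30 in control mice. The groups stood clear of each other and 12 of 12 arrays were positive. The Gmnn difference was 0.49 (SE 0.14, limma adjusted p = 0.771, and 0.0199 with random mouse effects). The chromatin assembly gene Chaf1b was at -0.30 (SE 0.15), and the helicase cofactors Gins4 and Gins2 at -0.29 (SE 0.16) and 0.62 (SE 0.35).

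Of 46 listed mitosis genes 41 were measured, 13 positive and 28 negative, with a median of -0.06. Among the 41, 1 had an unadjusted p under 0.05, against 4.97% of all genes. This was Stmn1, or stathmin, which destabilises microtubules, with 0.27, 0.55 and 0.42 in water-restricted mice against -0.20, -0.78 and -0.26 in control mice. Its groups did not overlap and 12 of 12 arrays were positive. The Stmn1 difference was 0.83 (SE 0.19, limma adjusted p = 0.609, and 0.00607 with random mouse effects). Incenp, a partner of Aurkb, was at -0.33 (SE 0.17), Foxm1, a transcription factor of mitotic genes, at 0.34 (SE 0.21) and the spindle protein Tpx2 at -0.45 (SE 0.33).

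Of 28 listed genes of G1 control 17 were measured, 11 positive and 6 negative, with a median of 0.05. Among the 17, 2 had an unadjusted p under 0.05, against 4.97% of all genes. Cks2, a small binding partner of the kinases, was at 0.49 (SE 0.16), and Btg2, an antiproliferative gene, at -0.51 (SE 0.18), with limma adjusted p of 0.771 and 0.884, and both had a called dye term. Wee1, a kinase that holds Cdk1 inactive, had 0.54, 0.98 and -0.22 in water-restricted mice against 0.36, -0.87 and -0.78 in control mice. The Wee1 groups overlapped, with a difference of 0.86 (SE 0.39), and its mice differed within groups (limma adjusted p = 0.0414 for the F-test). Rbl1, a relative of the retinoblastoma gene, was at -0.32 (SE 0.21). Of 30 listed DNA damage and growth arrest genes 13 were measured, 9 positive and 4 negative, with a median of 0.04 and none at an unadjusted p under 0.05. The phosphatase Ppm1d was at 0.34 (SE 0.20), and the kinases Atm and Chek1 at -0.27 (SE 0.17) and 0.17 (SE 0.16). Of 15 histone genes and their regulator, Slbp was measured, at 0.28 (SE 0.21).

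Markers of some kidney cells also lay apart between the groups, but no listed marker passed the comparison of mouse levels at an adjusted p under 0.05. The fit with random mouse effects called 3 of 6 measured principal cell markers and 3 of 6 proximal tubule markers. It also called 1 of 3 erythroid and 1 of 8 interstitial markers, and none in the other marker lists, against 1.65% of all genes. Of 15 listed markers of principal cells of the collecting duct 6 were measured, and the 6 were on the side of Ccnd1, with a median of -0.44, against 0.00 over all genes. Their mean level ran from -0.29 to -0.23 in water-restricted mice and from 0.12 to 0.46 in control mice. Single markers ran from -1.10 for Fxyd4 to -0.10 for Tfcp2l1. Of 26 proximal tubule markers 6 were measured, 5 of them positive, with a median of 0.86 and a mean level from 0.29 to 0.44 in water-restricted mice and from -0.74 to 0.17 in control mice. They did not move alike, with Lap3 at 0.04 and Cyp7b1 at -0.08. Miox, at 1.43, and Lrp2, at 1.05, were positive on 12 of 12 arrays, and their groups did not overlap. Neither had a called dye term or a called difference among mice of a group. Gatm, at 1.48, and Slc22a7, at 0.67, differed among mice of a group and had a called dye term. The 3 of 7 erythroid markers measured were negative, with a mean level from -0.66 to -0.13 in water-restricted mice and from 0.25 to 0.42 in control mice. Interstitial markers, 8 of 11, had mean levels of -0.16 to 0.02 in water-restricted mice and -0.02 to 0.15 in control mice. This mean joins Col3a1, at -0.56, and Dcn, at 0.55, each with 1 sign on 12 of 12 arrays and no overlap. The 2 of 11 endothelial markers had -0.02 to 0.13 against -0.17 to 0.12. Of the leukocyte, intercalated cell and thick ascending limb lists 1 marker each was measured, at 0.40, -0.74 and 0.05, the intercalated cell marker being Slc4a1, which is also among the 3 erythroid markers, and the 3 urothelial markers were at -0.22 to -0.13. A ratio gives no level at which a marker would be absent, so the tissue label could not be checked against them. Their part in the differences of Ccnd1, Cdk6, Gmnn and Stmn1 was not tested.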

How the data were processed

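RNA of the renal medulla of 6 mice was hybridised to 12 two-colour arrays of 31200 spots. The values are log2 ratios deposited by the authors, 1 per spot and array. Background correction, normalization and numerator dye are not stated in the labels or files, and the base was read from the values. Signal over background could not be examined, and the number of arrays limits the precision.

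Adjacent spots of a clone were averaged to 15600 clones. Of these 9191 had 1 gene in the platform annotation, 254 several and 6155 none. Symbols of 9085 clones were looked up through Entrez identifiers in a RefSeq table of GRCm38.p6, which changed the symbol of 0 members. The mean over clones gave 6786 genes.

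Ratios were turned by dye. Weighted least squares gave a level per mouse, with a dye term and weights of 0.5 for arrays of a pair measured in both orientations. The 3 and 3 levels were compared by lmFit and eBayes of limma 3.58.1 under R 4.3.3 (Benjamini-Hochberg over 6786 genes, threshold 0.05). On the 12 arrays, where the residual is technical, limma also tested differences among mice of a group (moderated F) and the dye term. Error of arrays is shared by both groups, so the levels of mice are not fully independent. The comparison of 3 and 3 levels does not allow for this. Its standard errors and intervals can be wider than the error of arrays warrants, and its calls too few.

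Members and lists were chosen with earlier results of these data known. Named members were the 12 with the smallest p, 34 measured of 45 core genes, those called in another test, and the 3 with the widest clone spread, 47 in all. Lists gave up to 4 genes each. Cenpe, Cenps, Ccnb1ip1, the Ccnb2 pseudogene, Cdc42se1, Aurkc, Top1 and the E2F genes were named after their values were seen. Mouse numbers were not taken to pair the mice. Deviations of mice of the same number from their group means correlated at -0.01, -0.54 and -0.11. Such mice share an array, whose error moves their levels in opposite directions, so these correlations cannot decide whether mice were paired. Alternatives covered the sign, centring, scaling, weights, dye, orientation, random mouse effects, the widest array, clones, threshold, a replicate block and leaving out each mouse.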

Additional observations from a re-analysis of the deposited data

Results flagged for a closer look

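The 2 dye orientations gave different values for 11 members, by limma's dye term. The difference in the 546 orientation is given first and that in the 647 orientation second. Cdk6 had -0.17 and -1.21 (adjusted p = 0.00946), and Cdk7 had 0.01 and -0.64 (0.0385). Ccnt2 had -0.77 and -0.13 (0.0354), and Cdk5 had 0.63 and 0.04 (0.0371). On opposite sides were Ccnd3 with 0.69 and -0.53 (0.0153), Rfc2 with 0.45 and -0.38 (0.0161), Cdk9 with 0.55 and -0.49 (0.0207), Pole with -0.38 and 0.24 (0.0444), Aurkb with 0.39 and -0.28 (0.0466) and Pcna with -0.22 and 0.52 (0.0468). Pole4 had 0.00 and 0.53 (0.0430). The cause was not tested.

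One array stood apart for Pole4. Among the 6 arrays of the 546 orientation the one that pairs water-restricted mouse 1 with control mouse 3 had 0.64, and the others lay between -0.35 and 0.00. This was 1 of 24 groups of 6 arrays examined, and chance sets apart about 1 in 20 such groups.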

How the results depend on the processing

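Members were judged with 3 mice per group, on clones whose duplicate spots correlated at 0.155 at the lowest, and with a sign whose direction is unknown. A p that missed the threshold therefore leaves the intervals as the measure of what could differ. The group comparison of mouse levels called 0 genes and 0 members with ratios read as already turned, the 546 orientation alone, median centring, scale normalization, equal weights, robust eBayes, the median over clones, clones tested singly, a threshold of 0.1 and without the widest array or any 1 mouse. Leaving out the dye term gave the same values by design, because each mouse carried both dyes at equal weight. With the mouse number as a replicate block it called 0 genes and 0 members, with 260 genes at an unadjusted p under 0.05, and the members' median was 0.00. It called 1 gene with the 647 orientation alone and 1 with the swapped pairs alone, neither a member. Random mouse effects called 112 genes and 2 members. The next variants of this fit were added after seeing the data. Without the widest array it called 152 genes and 2 members, and without water-restricted mouse 1, 2 or 3 it called 55, 44 or 1 genes and without control mouse 1, 2 or 3 it called 42, 19 or 29. Ccnd1 was the 1 member called in 4 of these 6 fits, and 0 were called without water-restricted mouse 3 or control mouse 1. With ratios read as already turned it called 332 genes and 5 members, Ccnd3, Cdk6, Cdk9, Pcna and Rfc2, with Cdk6 at 0.52 and Pcna at -0.37, both on the side opposite to that reported. That reading tests the same contrast as the dye term, which also called these 5 members, so it is not a separate result. The members' median was 0.07 read as already turned, with and without random mouse effects, 0.01 with equal weights, 0.07 with the 546 and -0.04 with the 647 orientation alone, 0.01 with random mouse effects and 0.02 with the swapped pairs alone. Without 1 mouse it ran from -0.02 to 0.02, and from -0.01 to 0.03 with random mouse effects. The F-test between mice called 0 members with equal weights and 0 with clones tested singly. The dye term called 4 members with equal weights, 5 with clones tested singly and 19 at a threshold of 0.1. The cause of these changes was not tested.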
